A study of Homo sapiens with 6 samples.

Results

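The genes described here were 54 interferon-stimulated and antigen presentation genes, chosen by name with earlier results of these data known. They were followed in Hep3B cells with and without knockdown of DAGLA. Members were the genes whose Ensembl identifier carries a chosen symbol in GENCODE release 29. Of the 54, 50 had a row in the deposited table of 29908 genes, 41 of them interferon-stimulated genes outside the class I pathway and 9 of them genes of the major histocompatibility complex (MHC) class I pathway. MX2, SAMD9L, IFI44 and XAF1 were not analysed here.

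Hep3B is an established human hepatocellular carcinoma line. Hep3B-KD cells received a lentivirus with 1 short hairpin RNA against DAGLA, which encodes diacylglycerol lipase alpha. Hep3B-Con cells received a control lentivirus, called shControl in the sample titles and an empty vector in the series record. Both groups were infected at a multiplicity of infection of 5 and selected with puromycin, and no interferon treatment is recorded. The comparison asks which messenger RNAs differ when DAGLA is silenced. It rests on 1 line and 1 hairpin, and the methods of the study describe puromycin selection for clones with stable expression, without saying how many clones entered each group. The growth medium is DMEM in the sample records and MEM-alpha in the methods of the study. Each group had 3 libraries, recorded as biological replicates, so that p-values measure the spread between these libraries, part of which may be technical.

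Interferons are secreted proteins that bind surface receptors coupled to Janus kinases. Type I interferons lead to a complex that contains STAT2 and IRF9 and binds the interferon-stimulated response element, whereas type II interferon mainly leads to binding at gamma-activated sites. The induced genes encode antiviral effectors, chemokines for T cells and the machinery that loads peptides onto MHC class I molecules, and many of these genes keep a basal level in cells to which no interferon was added.

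The table held fragments scaled to exon length in kilobases and to library size (FPKM), and reads recovered from it summed to between 15861039 and 17572714 per library. DAGLA fell from 9.28 ± 0.229 FPKM (SD, n = 3) in Hep3B-Con to 4.62 ± 0.164 FPKM (SD, n = 3) in Hep3B-KD (exact permutation test, two-sided, p = 0.1, which is the lowest value possible with 3 against 3). All 12 hepatocyte markers were above the filter, and their summed level was 5443 to 5571 FPKM in Hep3B-Con and 8695 to 8825 FPKM in Hep3B-KD. ALB and APOA2 carried most of that sum, 10 of the 12 were higher, and FGB and HNF4A were lower (limma log2 fold changes -0.96 and -0.36). Of 10 leukocyte markers 7 had a row and 2 were above the filter, CD14 and LYZ. Their summed level was 2.92 to 4.52 FPKM in Hep3B-Con and 4.19 to 4.87 FPKM in Hep3B-KD, and the pan-leukocyte gene PTPRC had 1 to 6 reads per library. Fibroblast markers summed to 11.6 to 13.2 FPKM in Hep3B-Con and 7.17 to 7.89 FPKM in Hep3B-KD with 4 of 8 above the filter, and none of 6 endothelial markers was above it. The part of these shifts in the results below was not tested, and in bulk RNA a change in the number of expressing cells and a change in RNA per cell cannot be told apart.

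Of the 50 genes, 24 reached a mean of 0.5 FPKM across all libraries and were tested with limma on log2(FPKM + 0.1). In Hep3B-KD, 15 of the 24 were higher, none was lower and 9 did not pass an adjusted p of 0.05 (Benjamini-Hochberg over 14147 genes). At an unadjusted p under 0.05, 2 of the 9 were lower, and limma's voom on the reads called 3 lower. Over all genes tested, 36.3% were higher and 24.0% lower at an adjusted p of 0.05 in the fit on log2(FPKM + 0.1). Among the interferon-stimulated genes 12 of 18 tested were higher, and among the MHC class I genes 3 of 6 were higher. CXCL10 passed the filter only through its Hep3B-KD values. Its place among the 24 tested followed from the group where it was high, and its call among the 15 is to be read with that limit. The median log2 fold change was 0.31 over the 24 genes, 0.31 over the 18 and 0.18 over the 6, against 0.11 over all genes tested. A fold change of at least 2 was reached by 2 of the 24, CXCL10 and PARP14, against 5.88% of all genes that rose by as much. With a pseudocount of 1, PARP14 had a log2 fold change of 0.71 and stayed under a fold of 2. When the libraries were centred on their median log ratio, which moved the median of all genes to 0.005, 11 of the 24 were higher and 4 lower. IRF2, DTX3L, SP110 and OAS3 were the calls lost there. The 36.3% and 24.0% of all genes belong to the fit without centring, and the shares under centring are not reported here.

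The summed level of the 50 genes was 300.6, 301.1 and 313.7 FPKM in the Hep3B-Con libraries and 408.0, 410.9 and 400.1 FPKM in the Hep3B-KD libraries. The groups did not overlap. Most of this RNA came from IFITM3 and B2M, which together made up 64.6% to 65.5% of the sum in Hep3B-Con and 66.9% to 68.1% in Hep3B-KD. Levels spanned from these abundant transcripts down to OAS2 and CCL5, with 1 read each over all 6 libraries.

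**Figure D1:**
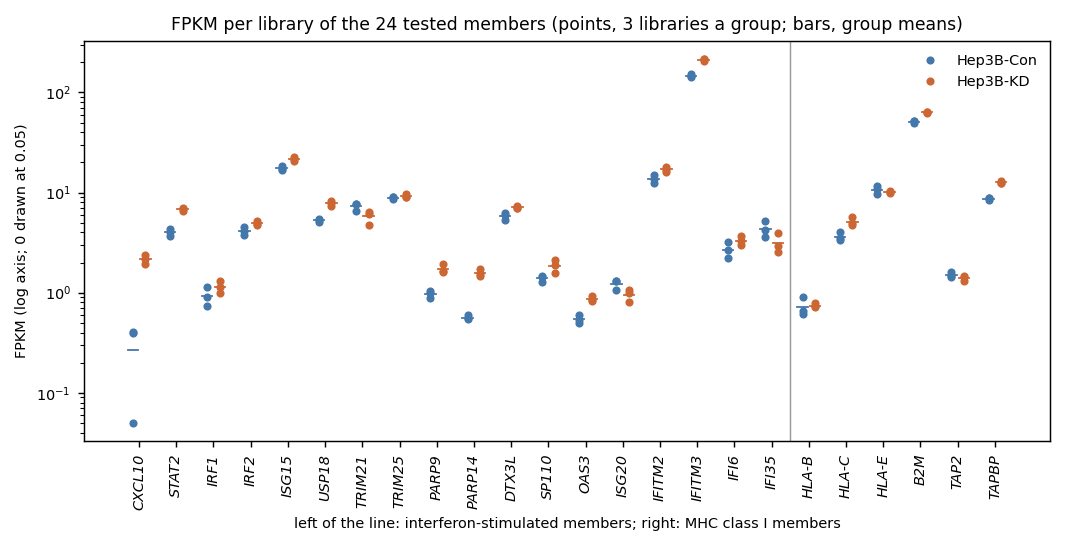
FPKM (log axis) of the 24 tested genes in each Hep3B-Con and Hep3B-KD library, with interferon-stimulated genes on the left and MHC class I genes on the right; points are libraries and bars are group means, and the value of 0 in CXCL10 is drawn at 0.05. IFITM3 at 143 to 216 FPKM and B2M at 49.9 to 63.7 FPKM stand above the other genes, and CXCL10 shows the widest gap between groups.

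**Figure D2:**
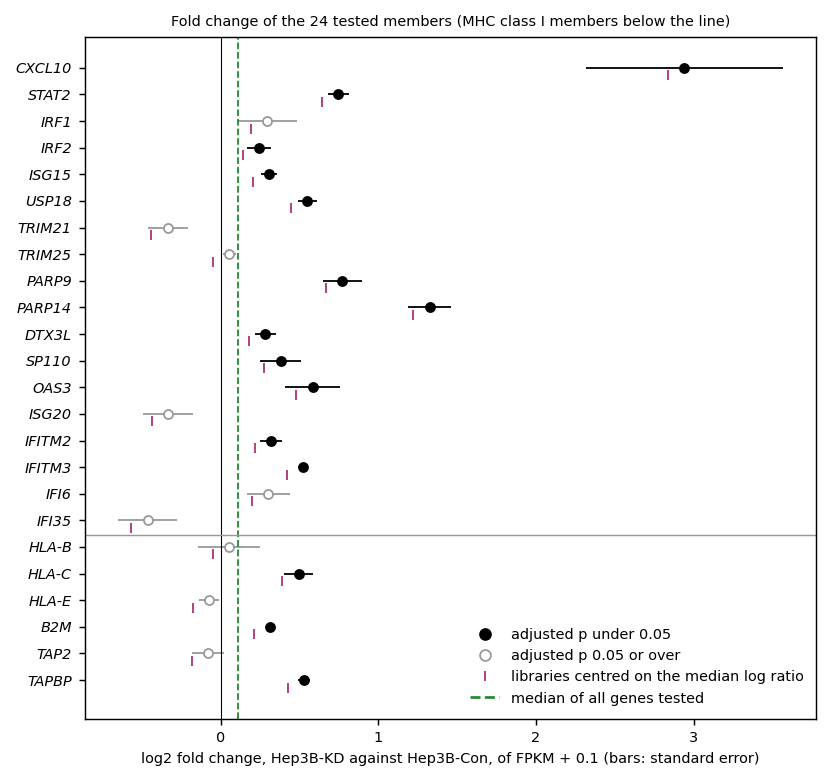
Log2 fold change of FPKM + 0.1 (Hep3B-KD against Hep3B-Con) with its standard error for the 24 tested genes, filled where limma's adjusted p was under 0.05. The violet ticks give the value with libraries centred on the median log ratio, and the dashed line is the median of all genes tested at 0.11.

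To show the control sequences that these genes share, start-site windows from RefSeq (GRCh38.p14, 250 bases before to 50 after each start) were searched on both strands for 3 motifs. The core of the interferon-stimulated response element was taken as GAAA, any 2 bases and GAAA, and the core of the gamma-activated site as TTC, any 3 bases and GAA. The NF-kB site was GGGAC followed directly by TTTCC. Windows existed for 42 of the 54 symbols. CCL5, IRF2, USP18, TRIM22, IFIT2, OAS2, OASL, MX2, GBP2, IFITM2, HLA-E and NLRC5 had none. The response element core was found in 29 of the 42 genes, against 4.38% of 27305 genes, where a gene counted if any of its windows matched. Of all windows, counted singly, 3.57% held it. The members were chosen by name as interferon-stimulated genes. A share above that of all genes follows from this choice and says nothing about the knockdown. It was found in 9 of the 12 genes with a window that were higher in Hep3B-KD, in 4 of the 8 tested genes that did not pass, and in 15 of the 19 genes below the filter. The gamma-activated core was found in 12 of the 42 genes (9.38% of all genes), where it overlapped the other core in IFITM1, BST2, IFI27 and MX1. The NF-kB site was found in B2M and TAP1 only among the 42 (0.227% of all genes). A match describes the letters alone.

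The stretches below are from some of the genes whose windows hold the response element core, and TAP1 among them lies below the filter. They run 5′ to 3′ on the strand of the gene, with matches to the 3 motifs in capitals.
CXCL10: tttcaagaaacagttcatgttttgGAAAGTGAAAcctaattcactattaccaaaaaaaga
ISG15: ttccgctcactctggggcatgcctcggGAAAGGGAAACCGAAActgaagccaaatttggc
PARP14: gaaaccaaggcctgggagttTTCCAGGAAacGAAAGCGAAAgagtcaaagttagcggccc
DTX3L: ggagggacctccagggaagcGAAACTGAAA
OAS3: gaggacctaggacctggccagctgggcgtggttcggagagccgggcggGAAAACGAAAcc
IFITM3: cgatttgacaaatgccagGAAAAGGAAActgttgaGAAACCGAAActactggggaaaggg
B2M: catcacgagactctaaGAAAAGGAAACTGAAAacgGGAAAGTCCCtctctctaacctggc
TAPBP: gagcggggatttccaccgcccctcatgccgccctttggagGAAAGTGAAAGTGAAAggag
TAP1: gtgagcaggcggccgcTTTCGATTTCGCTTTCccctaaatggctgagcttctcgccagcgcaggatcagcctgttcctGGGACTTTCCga

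They lie at chr4:76023683-76023742 (minus strand, CXCL10), chr1:1013357-1013416 (plus, ISG15), chr3:122680779-122680838 (plus, PARP14), chr3:122564312-122564341 (plus, DTX3L), chr12:112938414-112938473 (plus, OAS3), chr11:320871-320930 (minus, IFITM3), chr15:44711357-44711416 (plus, B2M), chr6:33314079-33314138 (minus, TAPBP) and chr6:32853765-32853854 (minus, TAP1). The ISG15, B2M, TAPBP and TAP1 stretches each hold a pair of overlapping response element cores, which extends the repeat of the GAAA unit, and TAP1 carries it on the opposite strand. Of the 9 printed stretches, that of PARP14 alone holds a gamma-activated core beside the response element core. The core in the DTX3L stretch, at chr3:122564332-122564341, is also the match of PARP9, read on the other strand 41 to 32 bases before the PARP9 start, so that these neighbours share 1 match. No match to the response element core was found in the windows of STAT2, SP110 and HLA-C, which were higher, or of IRF1, TRIM25, IFI35 and HLA-B, which did not pass.

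Among the chemokines, CXCL10 (ENSG00000169245, GRCh38 chr4:76021117-76023497), a ligand of the T cell receptor CXCR3, showed the largest rise of the 24 genes. It was at 0, 0.391 and 0.409 FPKM in Hep3B-Con, from 0, 8 and 8 reads, and at 1.93, 2.17 and 2.36 FPKM in Hep3B-KD, from 36, 41 and 46 reads. Every Hep3B-KD library was above every Hep3B-Con library, and 1 control library held no read. The ratio of the group means was 8.07, and the log2 fold change was 2.94 (SE 0.626, limma adjusted p = 0.006). Its rank was 22 from the top among all genes tested, a set that CXCL10 entered only through its Hep3B-KD values. The size of the log2 fold change depended on the pseudocount, at 1.33 with a pseudocount of 1 and 4.18 with 0.01. It was 2.17 without Hep3B-Con replicate 1, the library with no read. The other ligands of CXCR3 were near absence, with 0 to 3 reads of CXCL9 and 1 to 4 reads of CXCL11 per library, and CCL5, a chemokine of NF-kB and interferon responses, had at most 1 read.

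STAT2, a subunit of the type I interferon complex, stood at 3.71, 4.08 and 4.33 FPKM in Hep3B-Con and 6.605, 7.04 and 6.84 FPKM in Hep3B-KD. The groups were apart by more than the range within either, with a log2 fold change of 0.75 (SE 0.0657, limma adjusted p = 8.9e-05). IRF2, which binds the same elements as IRF1 and can oppose it, was at 3.80, 4.52 and 4.09 FPKM in Hep3B-Con and 4.82, 4.76 and 5.15 FPKM in Hep3B-KD. The gap between the groups was narrow, and its log2 fold change of 0.24 (SE 0.0742, limma adjusted p = 0.0267) did not pass in 7 of 17 alternative fits. It was lost without Hep3B-Con replicate 1 or 3 or Hep3B-KD replicate 1 or 3 (limma adjusted p = 0.0544 to 0.0849). IRF1, an activator induced mainly by type II interferon, ranged from 0.737 to 1.15 FPKM in Hep3B-Con and from 1.002 to 1.31 FPKM in Hep3B-KD, and the groups overlapped (limma adjusted p = 0.227). IRF9, the DNA-binding subunit of the type I complex, had 7 to 15 reads in both groups. Exons of the readthrough gene AL136295.5 on the same strand cover 48.4% of the exon length of IRF9, and how reads in the overlap were assigned is not stated.

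ISG15, a ubiquitin-like protein that is attached to other proteins after interferon exposure, was measured at 18.5, 17.2 and 16.7 FPKM in Hep3B-Con and 20.6, 21.8 and 22.5 FPKM in Hep3B-KD. All Hep3B-KD values lay above the control values, and the log2 fold change was 0.31 (SE 0.0502, limma adjusted p = 0.00177). USP18, the protease that removes ISG15 and restrains the type I receptor, was at 5.03, 5.32 and 5.50 FPKM in Hep3B-Con and 7.26, 8.25 and 7.84 FPKM in Hep3B-KD. This was a log2 fold change of 0.55 (SE 0.0615, limma adjusted p = 0.000282), larger in size than that of ISG15, although the difference between the 2 genes was not tested. HERC5, the main ligase of ISG15, had 17 to 24 reads in Hep3B-Con and 19 to 25 in Hep3B-KD, so that the groups overlapped. HERC6, its relative, had 4 to 8 reads in Hep3B-Con and 10 to 16 in Hep3B-KD.

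PARP14, PARP9 and DTX3L lie close together on chromosome 3, where PARP9 and DTX3L start from a shared region in opposite directions. PARP14 (chr3:122680618-122730840), a mono-ADP-ribosyltransferase of interferon-treated cells, was at 0.596, 0.554 and 0.544 FPKM in Hep3B-Con and 1.71, 1.53 and 1.46 FPKM in Hep3B-KD. The control values lay within a narrow range, well below the lowest Hep3B-KD value, and the log2 fold change was 1.33 (SE 0.135, limma adjusted p = 0.000179). PARP9, which forms a complex with DTX3L, was at 1.04, 0.875 and 0.981 FPKM in Hep3B-Con and 1.91, 1.64 and 1.60 FPKM in Hep3B-KD, a log2 fold change of 0.77 (SE 0.123, limma adjusted p = 0.00156). DTX3L, a ubiquitin ligase, was at 5.33, 5.94 and 6.30 FPKM in Hep3B-Con and 7.06, 6.93 and 7.38 FPKM in Hep3B-KD, a log2 fold change of 0.28 (SE 0.0673, limma adjusted p = 0.0101). DTX3L was more abundant than PARP9 in each library and had the smaller fold change, a difference that was not tested. Both genes share the match printed above, and its part in these values was not tested. The DTX3L call was lost with median centring and with quantile normalization (limma adjusted p over all alternatives up to 0.0612).

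Of the other ligases and nuclear proteins, SP110, a nuclear body protein, was at 1.27, 1.44 and 1.47 FPKM in Hep3B-Con and 1.56, 1.89 and 2.11 FPKM in Hep3B-KD (log2 fold change 0.38, SE 0.132, limma adjusted p = 0.043), and 8 of 17 alternative fits did not call it. It was lost without any 1 of the Hep3B-Con libraries or Hep3B-KD replicate 2 or 3 (limma adjusted p = 0.0666 to 0.129). Exons on the opposite strand, mostly of the antisense gene AC009950.1, cover 20.9% of the exon length of SP110, and strand use in the counting is not stated. TRIM21, a cytosolic antibody receptor and ubiquitin ligase, went the other way. It was at 6.52, 7.75 and 7.60 FPKM in Hep3B-Con and 6.44, 6.16 and 4.75 FPKM in Hep3B-KD, with a log2 fold change of -0.34 (SE 0.126, limma adjusted p = 0.0552). The lowest Hep3B-Con value was only just above the highest Hep3B-KD value, and 6 of 17 alternative fits called it lower. These included the fits without Hep3B-Con replicate 1 (limma adjusted p = 0.0423) and without Hep3B-KD replicate 1 (limma adjusted p = 0.0398), whereas without Hep3B-KD replicate 3 the log2 fold change was -0.20. TRIM25, the ligase that activates RIG-I, was at 8.62 to 9.00 FPKM in Hep3B-Con and 8.92 to 9.60 FPKM in Hep3B-KD (limma adjusted p = 0.306). TRIM22 had 0 to 2 reads per library.

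Of the effectors that act on viral RNA, OAS3, a synthase of the oligoadenylates that activate RNase L, was at 0.593, 0.537 and 0.495 FPKM in Hep3B-Con and 0.917, 0.838 and 0.825 FPKM in Hep3B-KD. The groups were apart (log2 fold change 0.58, SE 0.174, limma adjusted p = 0.0249), but the call was lost in 8 of 16 alternative fits, 5 of which left out 1 library each (Hep3B-Con replicate 2 or 3 or any Hep3B-KD library, limma adjusted p = 0.0548 to 0.0832). Its relatives OAS1 and OAS2 had at most 1 read per library and OASL at most 4. ISG20, an exonuclease, was at 1.05 to 1.31 FPKM in Hep3B-Con and 0.803 to 1.06 FPKM in Hep3B-KD, and the groups overlapped (log2 fold change -0.33, limma adjusted p = 0.109).

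IFITM3, a membrane protein that blocks virus entry from endosomes, was the most abundant gene of the list. It stood at 147, 143 and 152 FPKM in Hep3B-Con (147 ± 4.37, SD, n = 3) and 214, 216 and 204 FPKM in Hep3B-KD (212 ± 6.41, SD, n = 3). The groups were far apart beside the spread within them, with a log2 fold change of 0.52 (SE 0.0305, limma adjusted p = 1.4e-05). A lincRNA on the opposite strand covers 21.3% of its exon length, and strand use in the counting is not stated. IFITM2 was at 13.6, 12.5 and 14.8 FPKM in Hep3B-Con and 16.1, 16.7 and 18.2 FPKM in Hep3B-KD (log2 fold change 0.32, SE 0.0716, limma adjusted p = 0.00776). IFITM1, which acts at the plasma membrane, had 0 to 3 reads in Hep3B-Con and 1 to 7 in Hep3B-KD. The 3 genes are near copies of each other, and the annotated exons of IFITM1 and IFITM2 overlap over 32.5% and 22.7% of their lengths, so the split of reads between them is uncertain. BST2 (tetherin), which holds budding virus at the cell surface, had 0 to 3 reads in Hep3B-Con and 2 to 10 in Hep3B-KD.

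The remaining tested effectors did not pass. IFI6, a mitochondrial and endoplasmic reticulum protein, was at 2.24 to 3.19 FPKM in Hep3B-Con and 2.996 to 3.67 FPKM in Hep3B-KD (log2 fold change 0.30, limma adjusted p = 0.102). IFI35 was at 3.62 to 5.24 FPKM in Hep3B-Con and 2.57 to 3.93 FPKM in Hep3B-KD (log2 fold change -0.46, limma adjusted p = 0.07). For both genes the libraries of the groups overlapped. IFI6 passed without Hep3B-Con replicate 2 (limma adjusted p = 0.0252), and IFI35 passed as lower without Hep3B-Con replicate 2 (limma adjusted p = 0.0478) or Hep3B-KD replicate 1 (limma adjusted p = 0.0192).

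In the MHC class I pathway, the invariant light chain B2M (ENSG00000166710, chr15:44711487-44718877) was at 49.9, 51.5 and 51.3 FPKM in Hep3B-Con and 63.4, 62.8 and 63.7 FPKM in Hep3B-KD. It had 34621 reads over the 6 libraries, the most of any gene of the list, and its means were 50.9 ± 0.881 and 63.3 ± 0.469 FPKM (SD, n = 3). The log2 fold change was 0.31 (SE 0.0207, limma adjusted p = 2.4e-05). TAPBP (tapasin), which bridges empty class I molecules to the peptide transporter, was at 8.87, 8.84 and 8.40 FPKM in Hep3B-Con and 12.5, 12.3 and 12.9 FPKM in Hep3B-KD. It showed the largest log2 fold change of the 6 tested class I genes at 0.53 (SE 0.0381, limma adjusted p = 3.6e-05). The classical heavy chain HLA-C was at 3.52, 3.33 and 4.002 FPKM in Hep3B-Con and 4.73, 5.66 and 5.00 FPKM in Hep3B-KD, a log2 fold change of 0.49 (SE 0.0938, limma adjusted p = 0.00359).

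The other 3 tested class I genes did not pass, and another 3 were below the filter. The classical chain HLA-B was at 0.610 to 0.905 FPKM in Hep3B-Con and 0.711 to 0.785 FPKM in Hep3B-KD (log2 fold change 0.05, limma adjusted p = 0.836), below HLA-C in every library. HLA-E, which presents leader peptides to natural killer cells, was at 9.74 to 11.5 FPKM in Hep3B-Con and 9.96 to 10.2 FPKM in Hep3B-KD (log2 fold change -0.08, limma adjusted p = 0.328), although it passed as lower without Hep3B-Con replicate 1 (-0.14, limma adjusted p = 0.0365). TAP2, a subunit of the peptide transporter, was at 1.43 to 1.61 FPKM in Hep3B-Con and 1.32 to 1.46 FPKM in Hep3B-KD (log2 fold change -0.08, limma adjusted p = 0.523), with 32.3% of its exon length shared with a gene on the same strand. TAP1, the other subunit, fell below the filter at 29, 34 and 37 reads in Hep3B-Con and 45, 46 and 43 reads in Hep3B-KD. HLA-F had 7, 12 and 7 reads against 15, 16 and 15, and for both genes the groups did not overlap. NLRC5, the transactivator of class I genes, had 1 to 9 reads per library. HLA heavy chains share long stretches of sequence and differ from the reference between cell lines, so that the division of reads among them is uncertain.

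Below the filter stood 26 genes, for which reads are given. Of these, 10 had under 20 reads over the 6 libraries, a limit chosen after the data had been seen, and 7 had at most 3 reads in every library (CXCL9, CCL5, TRIM22, OAS1, OAS2, RSAD2 and IFI44L), where no difference was detectable at this depth. The 16 with at least 20 reads included 8 whose Hep3B-KD libraries all lay above the Hep3B-Con libraries in FPKM (HERC6, IFIT1, IFIT2, IFIT3, GBP1, GBP2, HLA-F and TAP1) and none in the opposite order. Among 4081 genes of the same kind, 27.5% were apart upward and 7.79% downward. Of the 16, IFIT1 and BST2 reached 20 reads mainly through Hep3B-KD. The place of IFIT1 among the 8 is to be read with that limit. The Hep3B-KD libraries held fewer reads in all than the Hep3B-Con libraries, with 15861039 to 16593115 against 16644962 to 17572714.

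GBP1, a guanylate-binding GTPase typical of type II interferon, had 9, 1 and 8 reads in Hep3B-Con and 32, 33 and 25 reads in Hep3B-KD. It was the 1 gene of the 16 called when all genes were fitted without the filter (log2 fold change 1.52, SE 0.337, limma adjusted p = 0.0163), where 8.06% of the 4081 genes were called higher and 2.13% lower. GBP2 had 23, 39 and 28 reads in Hep3B-Con and 81, 55 and 47 reads in Hep3B-KD, and no library crossed between the groups. MX1, a dynamin-like GTPase that traps viral nucleocapsids, had 9, 20 and 6 reads in Hep3B-Con and 29, 25 and 19 reads in Hep3B-KD, where 1 control library exceeded the lowest Hep3B-KD library.

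The IFIT proteins, some of which bind viral RNA that lacks host-type cap methylation, were all below the filter. IFIT1 had 0, 1 and 6 reads in Hep3B-Con and 9, 9 and 14 in Hep3B-KD. IFIT2 had 14, 13 and 4 reads in Hep3B-Con and 29, 20 and 22 in Hep3B-KD, and IFIT3 had 9, 5 and 9 reads against 14, 16 and 22. In these 3 genes the groups did not overlap, whereas IFIT5 with 10, 5 and 13 reads against 9, 23 and 13 overlapped. SAMD9, a factor that restricts poxviruses, had 2, 11 and 7 reads in Hep3B-Con and 21, 10 and 23 in Hep3B-KD, and IFI27 had 2 to 9 against 5 to 10. In a model of the reads themselves (limma's voom over genes with at least 20 reads), which was added after the data had been seen, 8 of the 16 genes were higher at an adjusted p under 0.05 and none lower. These were IFIT1, IFIT2, IFIT3, MX1, GBP1, GBP2, BST2 and SAMD9, where 20.7% of the 4081 genes were called higher and 5.34% lower. The log2 fold changes of the 8 lay between 1.09 (GBP2, SE 0.269, limma adjusted p = 0.00153) and 2.81 (IFIT1, SE 0.764, limma adjusted p = 0.00351). BST2 passed narrowly (limma adjusted p = 0.0479) from 21 reads over all libraries, and the groups overlapped in BST2, MX1 and SAMD9. The class I genes HLA-F (limma adjusted p = 0.0622), TAP1 (limma adjusted p = 0.0606) and NLRC5 (limma adjusted p = 0.956) did not pass in that model.

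**Figure D3:**
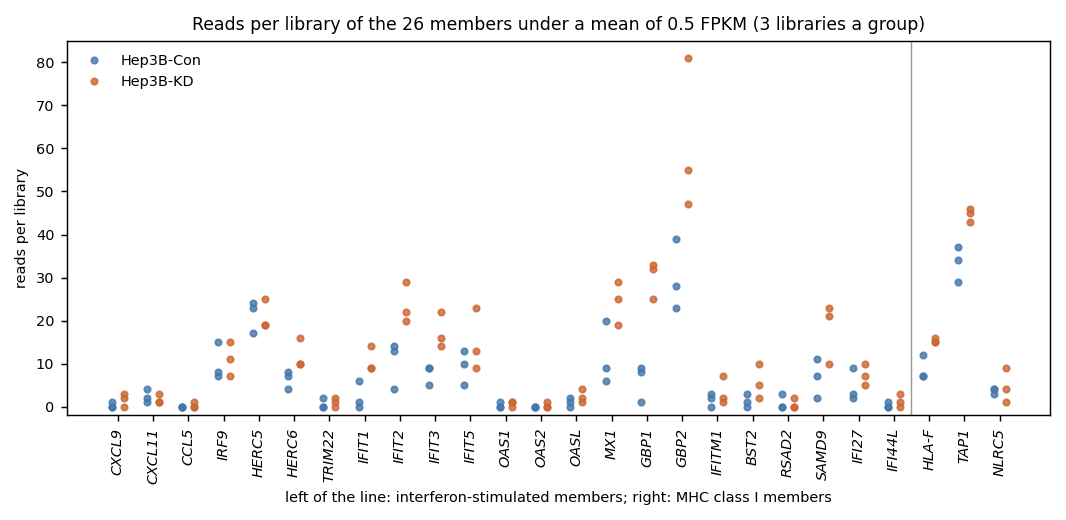
Reads per library of the 26 genes under a mean of 0.5 FPKM, with the 3 Hep3B-Con and 3 Hep3B-KD libraries as points and MHC class I genes on the right. GBP2 reaches 81 reads and TAP1 46 reads in Hep3B-KD, while CXCL9, CCL5, TRIM22, OAS1, OAS2, RSAD2 and IFI44L stay at 3 reads or fewer in every library.

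The other genes of the pathway were read from lists drawn up by pathway, also with earlier results of these data known. The 10 interferon ligands were not analysed here. The counts of each list stand against 36.3% higher and 24.0% lower over all genes tested, and no list was tested as such. Of 9 receptors and kinases 7 were tested, and 5 were higher, 1 lower and 1 not called. JAK2 rose from 0.654 to 1.38 FPKM (log2 fold change 0.97, limma adjusted p = 0.000715), the type I receptor chain IFNAR1 from 11.5 to 19.0 FPKM (0.72, limma adjusted p = 7.71e-06) and JAK1 from 27.8 to 41.8 FPKM (0.59, limma adjusted p = 7.3e-06). Among 9 tested transcription factors and inhibitors 3 were higher, 2 lower and 4 not called, shares near those of all genes. IRF3, which drives interferon beta, fell from 15.9 to 10.4 FPKM (log2 fold change -0.61, limma adjusted p = 0.000335) and IRF8 from 1.67 to 0.507 FPKM (-1.56, limma adjusted p = 0.000361). Exons of BCL2L12 on the opposite strand cover 19.3% of the exon length of IRF3, and strand use in the counting is not stated.

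Of 8 tested sensors of double-stranded RNA and their adaptors, 5 were higher, 2 lower and 1 not called, and the 2 lower genes were the adaptors MAVS (log2 fold change -0.28, limma adjusted p = 0.000503) and TICAM1 (-0.23, limma adjusted p = 0.000567), named after their values were seen. IFIH1 (MDA5) rose from 0.901 to 2.47 FPKM (log2 fold change 1.37, limma adjusted p = 8.31e-05) and DDX58 (RIG-I) from 2.33 to 4.85 FPKM (1.03, limma adjusted p = 5.08e-05), both themselves induced by interferon. Of 27 tested genes in a list of other interferon-stimulated genes, 13 were higher, 7 lower and 7 not called. ADAR and EIF2AK2, both higher, stand in this list and among the sensors, so the counts of these lists are not separate. SLFN5 (0.94, limma adjusted p = 0.0168) and NMI (0.90, limma adjusted p = 0.00931) had the largest log2 fold changes upward, although SLFN5 passed the filter only through its Hep3B-KD values. WARS, the tryptophanyl-tRNA synthetase, fell from 21.2 to 11.6 FPKM (-0.87, limma adjusted p = 1.29e-06). The 7 of 27 lower lie near the 24.0% of all genes. The 0 of 24 above depended on the fit, with 4 lower under median centring, 4 under quantile normalization and 3 under voom on reads. The 24.0% belongs to the fit as reported, not to these settings. Members and lists were chosen with earlier results known, and the difference between the lists was not tested. Among NF-kB factors and inhibitors 5 of 7 were higher and 2 lower. The rises were led by TNFAIP3 (1.49, limma adjusted p = 6.26e-06), REL (0.81, limma adjusted p = 0.00272) and NFKBIA (0.51, limma adjusted p = 7.84e-05), of which TNFAIP3 and NFKBIA restrain the pathway. Exons of another gene on the same strand cover 43.3% of the exon length of REL. The 2 lower genes, named after their values were seen, were RELA (-0.48, limma adjusted p = 2.15e-05) and NFKB1 (-0.41, limma adjusted p = 0.000108).

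Beyond the 9 genes of the class I pathway above, 16 other class I and peptide processing genes were tested, of which 7 were higher, 3 lower and 6 not called. The pseudogene HLA-H had a log2 fold change of 0.89 (limma adjusted p = 0.00947), and its reads could not be separated from those of related heavy chains with certainty. The general chaperone of the endoplasmic reticulum CANX, which folds heavy chains, fell from 142 to 98.1 FPKM (-0.53, limma adjusted p = 1.34e-06). The immunoproteasome subunits PSMB8 and PSMB9, singled out after their values were seen, had 3 and 2 reads in the 3 Hep3B-Con libraries together and 3 and 4 reads in Hep3B-KD. The subunit PSMB10 was above the filter, at 0.564 FPKM in Hep3B-Con and 0.533 FPKM in Hep3B-KD (log2 fold change -0.06, limma adjusted p = 0.867). Exons of another gene on the same strand cover 34.8% of the exon length of PSMB10. Of the MHC class II list 2 of 10 genes were tested, and the invariant chain CD74 rose from 8.77 to 16.9 FPKM (0.94, limma adjusted p = 5.53e-06).

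**Figure D4:**
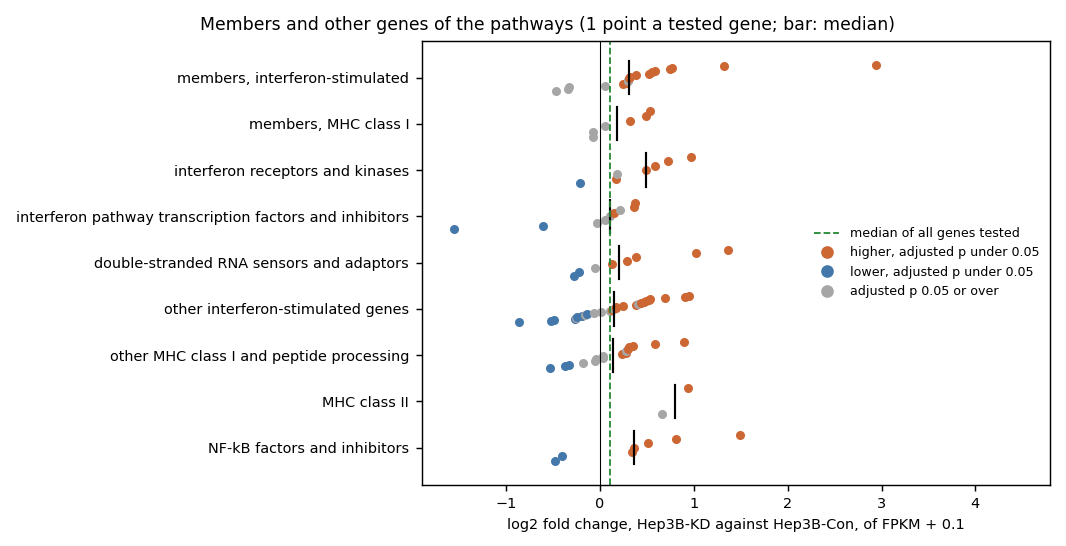
Log2 fold change of FPKM + 0.1 (Hep3B-KD against Hep3B-Con) of each tested gene among the members and in 7 other lists, with orange points for higher, blue for lower and grey for not called. Short bars are list medians and the dashed line is the median of all genes tested at 0.11; receptors and kinases centre on 0.49 and the transcription factors and inhibitors on 0.10. ADAR and EIF2AK2 are drawn both among the double-stranded RNA sensors and among the other interferon-stimulated genes.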

How the data were processed

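RNA-seq of 3 Hep3B-Con and 3 Hep3B-KD libraries was analysed, grouped by sample titles. The authors deposited FPKM values (reads per gene scaled to exon length and library total) in 1 table of 29908 genes. The submitters' processing notes name Bowtie2 2.0.6, TopHat2 2.0.12 and GRCh37. The counting tool and strand setting are not given in the sources used here. Multiplying FPKM by GENCODE release 29 exon lengths (GRCh38) gave whole reads, within 0.01, for 100% of values above 0, so the lengths fit that annotation, and coordinates are of GRCh38. For repeated symbols the row of highest mean stood, and 326 rows were not used. Genes averaging 0.5 FPKM or more were tested as log2(FPKM + 0.1) with limma 3.58.1 (trend, R 4.3.3, two-sided, Benjamini-Hochberg), and this scale understates changes of low genes. The fit was tested on simulated data. The floor of 3 reads covers counting error only. Any member could be named, and of other lists up to 3 called genes with the largest change. Some results are not reported here. The members and lists were chosen with earlier results of these data known. Motif matches and tables used Python 3.11.15. Replicate numbers did not pair the libraries. Alternatives were no filter or 1 FPKM, pseudocounts of 1 and 0.01, other scalings (same FPKM sum, median centring, quantile), no trend, the replicate number as a block, every row of a repeated symbol, voom on recovered reads, and each library left out. The voom model of genes with at least 20 reads was added after the data had been seen.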

Additional observations from a re-analysis of the deposited data

How the results depend on the processing

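Under 17 alternative fits no called gene changed direction, and the counts of higher calls stayed within 1.5 times of 15 (11 with median centring and with quantile normalization). The count of lower calls among the 24 genes, 0 as reported, was 4 with median centring, 4 with quantile normalization, 3 with voom on reads, 1 with a mean of at least 1 FPKM and 0 to 2 with 1 library left out. For the interferon-stimulated genes it was 3, 3, 3 and 1 under the same 4 settings and 0 to 2 with 1 library left out, and for MHC class I genes it was 1 with centring, 1 with quantile normalization and 0 to 1 with 1 library left out. The genes called lower by centring were TRIM21, ISG20, IFI35 and HLA-E, and quantile normalization called TAP2 in place of HLA-E. HLA-B and TRIM25 changed sign with centring without passing. With 1 library left out, 12 to 14 of the tested genes were higher. The shares of all genes called higher or lower under these settings are not reported here, so the counts stand without a background.

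With the replicate number as a block, 14 of the 24 genes were higher (OAS3 was lost), and 7942 in place of 8529 genes were called over the whole table. Same-numbered libraries did not deviate together (Pearson's r of -0.008, -0.065 and -0.001 across genes), so the numbers do not pair them. Among the 16 rarer genes, the count of higher calls was 1 on log2(FPKM + 0.1) without the filter and 8 with voom on reads. The limit given above for IFIT1 and BST2 applies to the 8. Depth limits the 10 genes under 20 reads, and 3 libraries a group limit small changes.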
